A study of Homo sapiens with 3 samples.

Results

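The RNAs described here are what remained of the 2 nutrient-deprived libraries of this series once ATF4, its pseudogenes ATF4P3 and ATF4P4, and the overlapping gene RNF157 were set aside. The series holds 3 libraries of 95D, an established human lung cancer cell line labelled wild type (WT): control culture, glucose-deficient culture and glutamine-deficient culture, 1 library each. The deprived libraries are called glucose-free and glutamine-free below, after their media, and carry the labels glucose-deficient and glutamine-deficient in the plots. Per the labels, cells grew for 24 h in complete medium and then 48 h in glucose-free or glutamine-free medium with 10% dialyzed serum, and the control is labelled as kept in control conditions for 48 h. Per the labels' protocols, RNA was captured from lysate with the biotinylated long non-coding RNA DAMER. The protocol text is the same for the control library, whose title names plain RNA sequencing, so whether the control is a pulldown is not settled by the labels. Every level below comes from 1 library per condition, so the intervals are 95% intervals for counting error only. PCR copies are not independent molecules, so the intervals may be too narrow even for that.

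The deposited table lists each deprived library in a block of its own beside the control, as 14338 entries with glucose-free values and 14333 with glutamine-free values. Entries that name a gene were paired across the blocks by gene ID and control value, which gave 13637 pairs without the ATF4 family. Pairs that belong to overlapping genes and carry the same values were counted as 1 region, leaving 11659 regions of 5924 genes. Values are in RPM, fragments scaled to the library total, and their fixed steps gave back the fragments behind them, with library totals of 18775814 for the glucose-free, 18301611 for the glutamine-free and 3781862 for the control library. The counts are of captured RNA in bulk lysates, so fewer cells with an RNA and less RNA per cell cannot be told apart.

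In a pulldown with an RNA bait, RNA that stays with the beads is sequenced, whether it pairs with the bait, is carried along in protein complexes or is bound unspecifically. Abundant cellular RNAs are well known among such carried-along molecules. Mitochondrial mRNAs are made inside the organelle from its own genome and encode subunits of the respiratory chain and of the ATP synthase. MALAT1 and NEAT1 are long non-coding RNAs retained in the nucleus, at splicing speckles and paraspeckles respectively. 7SK, RPPH1, RMRP and RN7SL1 are small structural RNAs made by RNA polymerase III.

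All RNA outside the ATF4 family made up 0.0689% of the glucose-free library, about 12936 fragments, and 0.0790% of the glutamine-free library, about 14450 fragments. The paired regions held 870 of these fragments (813 to 930) in the glucose-free library and 129.5 (108 to 154) in the glutamine-free library. That is 6.73% and 0.896% of the RNA outside the family, so most of it lay in places outside the list and was not analysed here. With entries found in 1 block only and entries naming no gene added, the fragments numbered 1132.5 and 158.5. Of the 11659 regions, 533 (4.57%) had at least 1 fragment in the glucose-free library and 35 (0.3%) in the glutamine-free library. By gene, 530 of 5924 (8.95%) and 41 (0.692%) had a fragment.

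The libraries differed by where these fragments lay. Mitochondrial regions held 89.5 fragments in the glucose-free and 99.5 in the glutamine-free library, a ratio of 0.877 (0.652 to 1.18). Regions outside mitochondria held 780.5 fragments in the glucose-free and 30 in the glutamine-free library, a ratio of 25.4 (17.6 to 37.8). Mitochondrial RNA therefore made up 10.3% of paired-region fragments in the glucose-free library (8.35% to 12.5%). In the glutamine-free library it made up 76.8% (68.6% to 83.8%), and in the control library 12.1% of the same regions. Over all listed entries the shares were 7.90% and 62.8% in the glucose-free and glutamine-free libraries. The choice of scaling sets how far each class differs. Library totals are nearly all ATF4 family fragments. Divided by the residual total of the paired regions instead, mitochondrial fragments were at a ratio of 0.134 and the others at 3.87.

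The sequences of 3 RNAs are given as examples. MT-ATP8 had a region alike in both libraries, and RPPH1 had 12 fragments in the glucose-free library and 0 in the other. RN7SK (7SK), the most abundant listed RNA of the control, had 1 and 0, which do not separate the libraries. No feature of the 3 sequences was compared with these counts. They are GENCODE release 29 transcripts on GRCh38, printed 5′ to 3′ in DNA letters. MT-ATP8 lies at chromosome M, 8366 to 8572, plus strand; the 46 capitals are the bases that it shares with the start of MT-ATP6. RPPH1 lies at chromosome 14, 20343075 to 20343407, minus strand, and RN7SK at chromosome 6, 52995621 to 52995948, plus strand. Lengths are 207, 333 and 328 bases, with 39.6%, 64.6% and 58.2% G and C, and the first 300 bases of the 2 longer ones are shown.
MT-ATP8: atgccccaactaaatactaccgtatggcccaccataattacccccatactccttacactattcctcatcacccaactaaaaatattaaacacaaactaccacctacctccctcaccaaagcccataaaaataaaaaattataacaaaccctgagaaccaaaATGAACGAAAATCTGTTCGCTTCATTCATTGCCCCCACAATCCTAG
RPPH1: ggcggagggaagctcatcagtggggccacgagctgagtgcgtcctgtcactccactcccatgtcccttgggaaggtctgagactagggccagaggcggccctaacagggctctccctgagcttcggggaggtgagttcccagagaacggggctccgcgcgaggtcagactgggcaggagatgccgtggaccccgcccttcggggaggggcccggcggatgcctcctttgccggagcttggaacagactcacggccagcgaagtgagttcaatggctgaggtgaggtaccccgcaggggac
RN7SK: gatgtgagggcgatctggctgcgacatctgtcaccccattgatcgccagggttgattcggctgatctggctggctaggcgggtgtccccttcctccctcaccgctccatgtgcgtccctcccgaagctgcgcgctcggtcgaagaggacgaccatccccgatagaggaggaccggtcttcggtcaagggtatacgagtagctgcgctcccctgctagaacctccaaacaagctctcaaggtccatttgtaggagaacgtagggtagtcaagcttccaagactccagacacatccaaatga

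Mitochondrial RNAs were counted in 10 listed regions, 7 of mRNAs and 3 of ribosomal RNAs. The region of MT-ATP6, MT-ATP8 and MT-CO3, which encode 2 ATP synthase subunits and a cytochrome c oxidase subunit, had 34 fragments (1.84 RPM) in the glucose-free and 33 (1.83 RPM) in the glutamine-free library, against 22058 in the control. The region of MT-ND4 and MT-ND4L, subunits of complex I, had 21 and 17.5 fragments against 18873.5. MT-CO2, a cytochrome c oxidase subunit, had 15 and 14 fragments against 15995.5. In these 3 regions the deprived libraries did not differ beyond counting error, with ratios of 1.00 (0.604 to 1.67), 1.17 (0.591 to 2.34) and 1.04 (0.470 to 2.34).

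MT-CO1, the catalytic subunit of cytochrome c oxidase, was listed in 3 regions that did not all differ the same way. The glucose-free library had 10.5, 2 and 1 fragments in them, and the glutamine-free library 6, 6 and 5. Summed, MT-CO1 had 13.5 and 17 fragments, a ratio of 0.774 (0.350 to 1.68). MT-ND1, another complex I subunit, was past 2-fold, the lone one of the 5 mitochondrial regions with at least 10 fragments in either library: 5 fragments (0.293 RPM) in the glucose-free and 17 (0.956 RPM) in the glutamine-free library, a ratio of 0.287 (0.0827 to 0.810). Its interval reached inside 2-fold, and with 0.5 RPM added to both values it was no longer past it. The small ribosomal RNA MT-RNR1 had 1 fragment in each library, and both regions of the large ribosomal RNA MT-RNR2 had 0 in each.

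**Figure D1:**
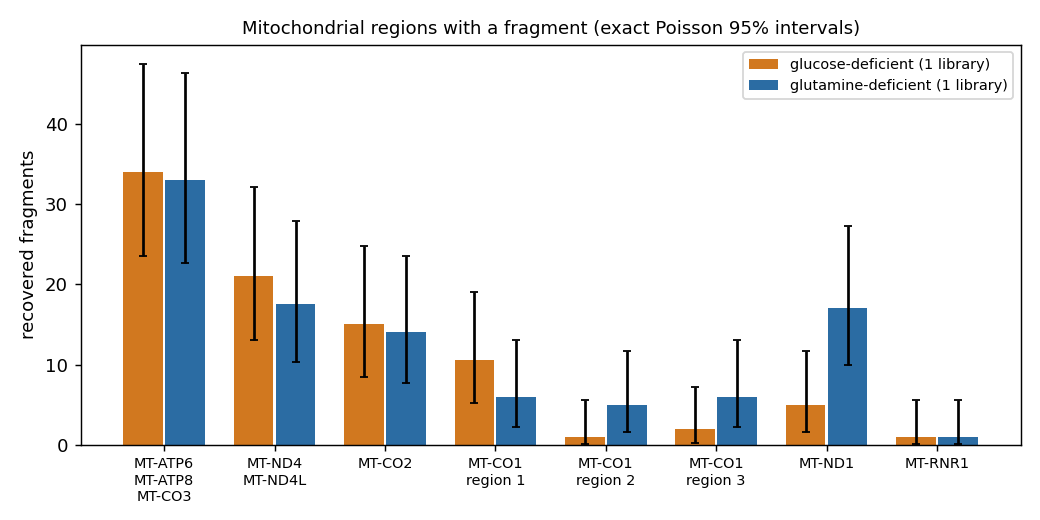
Recovered fragments (vertical axis, linear) in the 8 mitochondrial regions that had a fragment, ordered by control fragments, for the glucose-free and glutamine-free libraries. Bars are counts in 1 library and lines are exact Poisson 95% intervals; the paired intervals overlap in all 8 regions, and MT-ND1 shows the widest gap, 5 against 17.

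Only 10 regions had at least 10 fragments in either library, the minimum for calling a ratio. Of these, 5 (50%) had a value in the glucose-free library 2 or more times that in the other, 1 (10%), MT-ND1, was at least 2-fold lower, so that 60% were called in either direction, and the other 4 were mitochondrial regions within 2-fold. The 5 higher regions all lay outside mitochondria and had 0 fragments in the glutamine-free library: 1 of RPPH1, 1 of MALAT1 and 3 of a long non-coding RNA that is not named here. They reached 10 fragments through the glucose-free library alone, so with 0 in the other the call followed from the minimum and is a description. That RNA alone held 82 of the 780.5 fragments outside mitochondria in the glucose-free library and 0 in the other. Without it the ratio outside mitochondria was 22.7 (15.8 to 33.9), and 2 of 7 regions were called higher.

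Each class of RNA can be set against its own control fragments, as fragments kept per 1000 control fragments. All paired regions outside mitochondria had at least 2.64 RPM in the control. RNAs below that level there are therefore not part of these rates, here and by control level or gene list below. Both deprived libraries are divided by the same control here, and differences between classes within a library also carry the control's own composition. Mitochondrial regions kept 0.921 per 1000 (0.740 to 1.13) in the glucose-free and 1.02 (0.832 to 1.25) in the glutamine-free library. Regions outside mitochondria kept 1.11 (1.03 to 1.19) and 0.0426 (0.0288 to 0.0609). The intervals of the 2 groups of regions overlap in the glucose-free library and are far apart in the glutamine-free library.

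**Figure D2:**
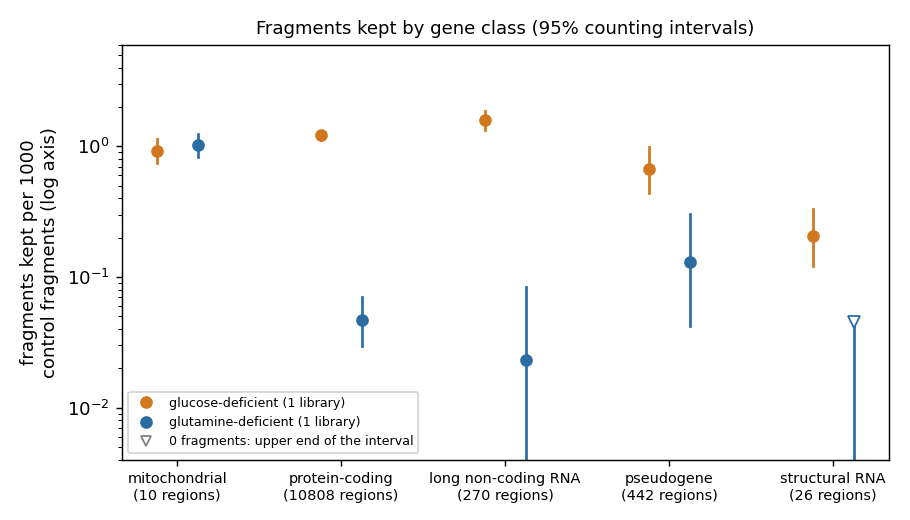
Fragments kept per 1000 control fragments (log axis) by gene class in the 2 deprived libraries, with 95% counting intervals; an open triangle marks 0 fragments at the upper end of the interval. The libraries overlap for mitochondrial RNA (0.921 and 1.02) and are apart for protein-coding RNA (1.21 and 0.0468) and the other 3 classes plotted.

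Protein-coding genes made up 10808 regions and kept 596 fragments in the glucose-free and 23 in the glutamine-free library, a ratio of 25.3 (16.7 to 40.2). In the glucose-free library 466 of these regions had a fragment, in the glutamine-free library 22. Long non-coding RNAs kept 136.5 and 2 fragments over 270 regions, and 54.5 and 2 without the RNA that is not named, a ratio of 26.6 (7.01 to 225). Pseudogenes, in 442 regions, were closest together outside mitochondria, with 26 and 5 fragments and a ratio of 5.07 (1.92 to 16.9). Reads of a pseudogene and its parent gene cannot be told apart with certainty, so the pseudogene values are uncertain.

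Structural RNAs were the class that the glucose-free library kept least: 17 fragments over 26 regions, 0.207 per 1000 control fragments (0.121 to 0.332), and 0 in the glutamine-free library. 7SK, which holds the elongation factor P-TEFb inactive, accounts for 55249 of the class's control fragments and had 1 fragment in the glucose-free library. Without it the class kept 0.597 per 1000 (0.341 to 0.969), and without RPPH1, the region with the most fragments, 0.0688. RPPH1, the RNA of RNase P, had 12 fragments (0.666 RPM) against 9353 in the control and kept 1.28 per 1000. RN7SL1, the scaffold RNA of the particle that targets proteins for secretion, had 2 fragments and RMRP, the RNA of RNase MRP, had 1. Spliceosomal RNAs RNU4-1, RNU4-2, RNU11 and RNU12 had 0 fragments in both libraries, from at most 76 in the control, too few for any to be detectable at this depth.

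Among long non-coding RNAs, MALAT1 (chromosome 11, 65497688 to 65506516, plus strand) had 23 fragments over 6 regions in the glucose-free and 0 in the glutamine-free library, from 21061 in the control. The counting interval of the ratio starts at 5.60-fold higher in the glucose-free library, and 23 fragments against a floor of 3 give 7.47. Its regions are shared with the antisense gene TALAM1, and reads of the 2 cannot be told apart. NEAT1 (chromosome 11, 65422774 to 65445540) had 13 fragments over 15 regions against 0, with an interval that starts at 2.97-fold higher and 4.22 against the same floor. NORAD, a long non-coding RNA that binds Pumilio proteins, had 3 fragments and 1, which do not separate the libraries.

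Regions were also grouped by their level in the control library. In the glucose-free library, regions outside mitochondria kept 1.04 per 1000 (0.899 to 1.20) below 10 RPM, 1.26 (1.14 to 1.38) from 10 to 100 RPM, 1.27 (1.04 to 1.54) from 100 to 1000 RPM and 0.693 (0.551 to 0.860) at 1000 RPM or more. The last value was 1.28 (1.02 to 1.60) without 7SK, and 0.683 (0.437 to 1.02) over the 4 regions left without 7SK and the RNA that is not named, so it rests on which of these RNAs are counted. RPM is per region and not per base, and the lengths of the regions were not used here.

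In the glutamine-free library the same regions kept 0.0727 per 1000 (0.0387 to 0.124) below 10 RPM, 0.0495 (0.0283 to 0.0804) from 10 to 100 RPM and 0.0120 (0.000303 to 0.0667) from 100 to 1000 RPM. At 1000 RPM or more it had 0 fragments against 118314 in the control, which allows up to 0.0312 per 1000 at the upper end of its interval. Over the 4 regions left without 7SK and the RNA that is not named, the upper end was 0.105, above the 0.0727 of the lowest class. The 113 regions at 100 RPM or more, 28.7% of the control's fragments outside mitochondria, held 24.1% of those of the glucose-free library (21.1% to 27.2%) and 3.33% of those of the glutamine-free library (0.0844% to 17.2%), which is 1 of 30. The single fragment belonged to MTATP6P1, a nuclear copy of the mitochondrial ATP6 gene at chromosome 1, 633696 to 634376, whose reads cannot be told apart from those of MT-ATP6 with certainty.

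**Figure D3:**
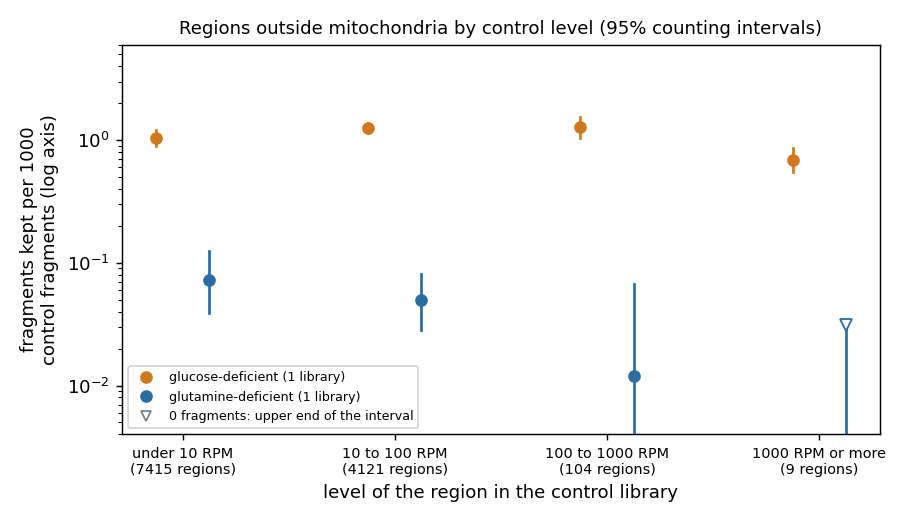
Fragments kept per 1000 control fragments (log axis) for regions outside mitochondria, in 4 classes of control level, with 95% counting intervals. The glucose-free library stays between 0.693 and 1.27, while the glutamine-free library goes from 0.0727 in the lowest class to 0 fragments (open triangle, upper end of the interval) in the highest. Without 7SK and the RNA that is not named, that upper end is 0.105, above the value of the lowest class.

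The 27 regions outside mitochondria with a fragment in the glutamine-free library are few enough to describe. SLC38A10, a putative amino acid transporter, and the pseudogenes TPT1P9 and ENSG00000223886 had 2 fragments each, and the other 24 had 1. SLC38A10 and ENSG00000223886 had 0 fragments in the glucose-free library, from only 24.5 and 17 in the control. TPT1P9, a processed pseudogene of the translationally controlled tumour protein gene, had 2 in each library. Single fragments lay in GADD45A, a stress-induced growth arrest gene, ALDOA, a glycolytic aldolase, EXO1, a DNA repair exonuclease, CNOT1, the scaffold of the CCR4-NOT deadenylase, MAZ, a zinc finger transcription factor, DAZAP1, an RNA-binding protein, and IPO9, a nuclear import receptor. All 7 had 0 fragments in the glucose-free library, and 1 fragment against 0 does not separate the libraries.

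Regions with a fragment were then matched between the libraries. All 8 mitochondrial regions with a fragment in one library had one in the other. Outside mitochondria 6 regions had a fragment in both, 1.14% of the 526 in the glucose-free and 22.2% of the 27 in the glutamine-free library: TPT1P9, MTATP6P1, NORAD, FAM98A, PRRC2A and UBA1. Over all 11649 regions outside mitochondria 4.52% had a fragment in the glucose-free and 0.232% in the glutamine-free library, so the overlap is above these shares. Most of these regions rest on single fragments, 403 of 526 and 24 of 27. The median control level of regions with a fragment was 15.997 RPM in the glucose-free and 10.97 RPM in the glutamine-free library, against 7.93 RPM over all 11649 regions outside mitochondria.

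In the glucose-free library the messenger RNAs of RNA-binding and splicing proteins held the most fragments among the lists of protein-coding genes outside mitochondria. Of 39 listed genes 16 (41.0%) had a fragment, 50 fragments in all, 2.61 per 1000 control fragments (1.93 to 3.44), and 0 of 39 had one in the glutamine-free library. Over all genes 8.95% and 0.692% had a fragment, with a median of 55 control fragments per gene against 376 in this list. In the glutamine-free library, 0 fragments in this list allow up to 0.192 per 1000, above the 0.0426 of all regions outside mitochondria. SRRM2, a scaffold of nuclear speckles, had 8 fragments against 0. HNRNPU and HNRNPA2B1, heterogeneous nuclear ribonucleoproteins, had 5 each against 0.

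Genes of the translation machinery followed with fewer fragments. Of 59 cytosolic ribosomal protein genes 12 (20.3%) had a fragment in the glucose-free library, 21 in all, and 0 in the glutamine-free library. The list kept 1.67 per 1000 control fragments (1.03 to 2.55) in the glucose-free library, beside 1.11 (1.03 to 1.19) for all regions outside mitochondria. RPS4X, a small-subunit protein, had 5, while RPL11 and RPS3 had 2 each. Of 33 translation factors 6 had a fragment, among them EEF2, the translocation factor, with 6, EIF4G1, the scaffold of the cap-binding complex, with 4 and EIF3A with 3. None of the 33 had one in the glutamine-free library. The factors kept 1.65 per 1000 (0.958 to 2.64) in the glucose-free library. Medians were 123.5 and 143.5 control fragments per gene in the 2 lists, against 55 over all genes. Of all genes 8.95% and 0.692% had a fragment in the 2 libraries. In the glutamine-free library, 0 fragments allow up to 0.293 and 0.357 per 1000, above the 0.0426 of all regions outside mitochondria.

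Lists close to the deprivations rest on 6 to 11 fragments each in the glucose-free library. Per 1000 control fragments the glycolysis list kept 2.77 (1.27 to 5.27), the glutamine list 1.90 (0.695 to 4.13) and the amino acid response list 1.14 (0.570 to 2.04), beside 1.11 for all regions outside mitochondria. Of their listed genes 20%, 5.26% and 15.6% had a fragment, beside 8.95% of all genes. The lists had medians of 215.5, 82 and 222.75 control fragments per gene, against 55 over all genes, so these shares are not like for like. The glutamine metabolism and transport list had 19 listed genes, of which ASNS, asparagine synthetase, had 6 fragments in the glucose-free and 0 in the glutamine-free library, from 252 in the control. GENCODE places a second gene, ENSG00000284707, over the same regions. The transporters SLC38A1, SLC7A5 and SLC1A5 had 0 in both, from 1045, 505.5 and 276.5 fragments in the control. That allows up to 3.53, 7.30 and 13.3 per 1000 at the upper ends, so a rate below 1.11 was not detectable. Of 32 genes of the amino acid response 5 had a fragment in the glucose-free library, ASNS, AARS1, SLC7A1, STC2 and EIF4EBP1, and 0 in the glutamine-free library. There, 0 fragments allow up to 0.383 per 1000, above the 0.0426 of all regions outside mitochondria. On the glycolysis list GAPDH had 6 fragments against 0, all in the region shared with the antisense gene ENSG00000269968, GPI had 2 and PGK1 had 1, while ALDOA had 0 against 1.

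Further lists had at most 6 fragments each in the glucose-free library. Chaperones of the endoplasmic reticulum had 5 of 13 genes with 1 fragment each, among them HSPA5, CALR and CANX. Heat shock genes, plotted under the label cytosolic heat shock though not all of the list is cytosolic, had 3 of 12, with HSP90AB1 at 3 fragments. DNA replication and mitosis genes had 5 of 34, with TOP2A at 2. Histones had 3 of 28, with H4C5 at 2, and immediate early genes 1 of 9, JUN with 2. Small nucleolar RNAs had 1 of 13, SNORA73A with 1, and their host genes 1 of 10, SNHG3. The fragment of SNHG3 is that of SNORA73A counted again, since its 2 listed regions are those of SNORA73A and SNORA73B. These 7 lists kept 0.389 to 1.94 per 1000 control fragments in the glucose-free library, and each interval includes the 1.11 of all regions outside mitochondria. Of their genes 7.69% to 38.5% had a fragment, beside 8.95% of all genes. Their medians were 62 to 238.5 control fragments per gene, against 55 over all genes. In the glutamine-free library they had 0 fragments, which allows 0.553 per 1000 or more at the upper end, above the 0.0426 of all regions outside mitochondria. The 30 listed nuclear-encoded oxidative phosphorylation genes, such as ATP5F1B and COX4I1, had 0 in both libraries, from 1804 control fragments in all. A count of 0 there allows up to 2.05 per 1000 at the upper end of its interval, which includes the 1.11 of all regions outside mitochondria, so a lower rate was not detectable at this depth.

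**Figure D4:**
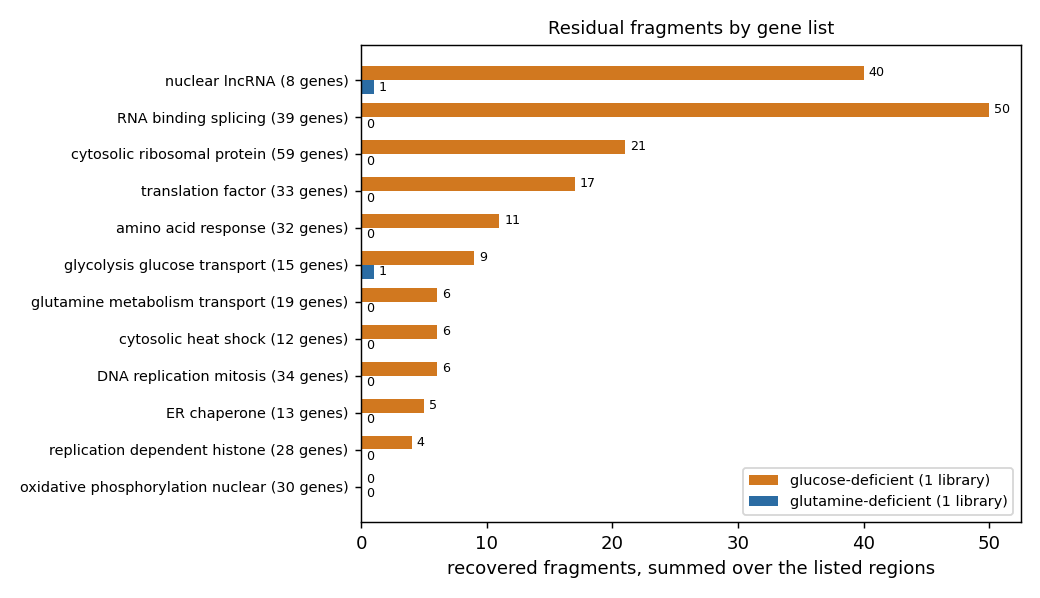
Recovered fragments (horizontal axis, linear), summed over the listed regions of 12 gene lists, in the glucose-free and glutamine-free libraries, with the number of listed genes in brackets. The RNA-binding and splicing list holds 50 fragments against 0 and the list labelled nuclear long non-coding RNA 40 against 1, that 1 being of NORAD. Only 2 of the 12 lists have a fragment in the glutamine-free library, 1 each. In the other lists a count of 0 allows 0.192 per 1000 control fragments or more at the upper end of its interval. That is above the 0.0426 of all regions outside mitochondria in that library, so counts of 0 do not set these lists apart.

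Markers of the labelled cell type are scarce in the list. Of 14 lung and epithelial markers only KRT8 is listed, at 6.48 RPM in the control and 0 fragments in both deprived libraries. Of 11 leukocyte and erythroid markers only the receptor gene CSF1R is listed, at 10.3 RPM and 0 fragments, and 0 of 10 fibroblast and endothelial markers are. The list therefore gives little on the identity of the cells, and the part of other cells in these results was not tested.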

How the data were processed

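The submitters' processing notes name HISAT2 2.0.5 and the build hg38. How fragments were assigned to regions, strand included, is not stated. The deposited values are RPM with an offset of 0.5 fragment per region, both read from the fixed steps of the values. Dividing by the step gave whole fragments for 63.3% of the control values, 99.96% of those after glucose removal and 99.98% after glutamine removal; the rest were kept to the nearest 0.5 fragment. Each of the 3 samples is 1 library, so no test between conditions was made. Regions were called at a 2-fold ratio of deposited RPM with at least 10 fragments in either library. Intervals are exact 95% Poisson or conditional binomial intervals (scipy 1.17.1) and cover counting error only. Gene classes and positions come from GENCODE release 29, which holds 5796 of the 5932 gene IDs. Other scalings used edgeR 4.0.16 and DESeq2 1.42.0 for normalization factors only. The calculation was tested on simulated data with many more fragments in these regions than the deprived libraries hold. That test does not cover calls at the low counts here. Named genes were the 20 genes with the most fragments in each library, the 5 highest and 5 lowest ratios among regions with at least 10 fragments and up to 4 per list; further genes in the text were chosen after their values were seen. The members and lists were chosen with earlier results of these data known. Entries found in 1 block only, and entries naming no gene, were left out of the comparison. One long non-coding RNA is not named, and some genes that the naming rule takes are not reported here.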

Additional observations from a re-analysis of the deposited data

Results flagged for a closer look

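Some entries stood in 1 block only and so entered no comparison. Their RPM lay above that of the control, by much in some and little in others. Every paired region outside mitochondria had at least 2.64 RPM in the control, and these entries had at most 0.661 RPM there. Their place in the list may thus itself rest on the deprived library, so values above the control are given as a description. The control library is the shallowest, so fragments are given with the deposited RPM. In the glucose-deficient block LINC02432 had 106 fragments (5.67 RPM) and LINC00343 had 33 (1.78 RPM), with 0 fragments (0.132 RPM, the offset) in the control. NOL4L had 45 (2.42 RPM) and UQCC1 had 11 (0.612 RPM), each with 1 fragment (0.397 RPM) in the control. RAD51B had 17 (0.932 RPM) with 2 (0.661 RPM) in the control, and in the glutamine-deficient block 12 (0.683 RPM) with 1 (0.397 RPM). For UQCC1 and RAD51B, 1 or 2 control fragments do not separate the libraries. An entry naming no gene had 26 fragments (1.41 RPM) in the glucose-deficient library, and one had 15 (0.847 RPM) in the glutamine-deficient library, both with 0 in the control.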

How the results depend on the processing

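No paired analysis was possible because each condition has 1 library and the labels carry no replicate numbers; for the same reason no library could be left out. Of 79 alternative values, 43 kept their call or stayed within their error and 36 moved. No called value changed direction, while the log2 ratio of MT-CO1, which was not called, was 0.72 in its largest region and -0.34 with its regions summed; where a value moved, the cause was not tested. Regions called higher in the glucose-deficient library numbered 3 with 1 RPM added, 521 at 1 or more fragments and with no filter, 11 at 5, 3 at 20, 1 when scaled to the residual total without mitochondria and 2 without the RNA that is not named (chosen after seeing the data, as were the values without 7SK). Regions called higher in the glutamine-deficient library numbered 0 with 0.5 or 1 RPM added, at 20 fragments and with the whole interval beyond 2-fold, 24 at 1 fragment and with no filter, 3 at 5, and 5 when scaled to the residual total with or without mitochondria. Residual fragments were 1132.5 and 158.5 over all listed regions and 6699.5 and 5959 with the offset left in, in the glucose-deficient and glutamine-deficient libraries, and 788 in the first without the RNA that is not named. The mitochondrial share was 7.90% and 62.8% over all listed regions, and 85.4% in the glutamine-deficient library without the 10 largest regions outside mitochondria. In the glucose-deficient library, fragments kept per 1000 were 1.31 for long non-coding RNA without the RNA that is not named, 0.738 for mitochondrial and 0.0688 for structural RNA without the region with the most fragments, 0.597 for structural RNA and 1.20 for regions outside mitochondria without 7SK. The most abundant regions kept 1.12 in 5 bins and 1.28 without 7SK there, and the least abundant kept 0.147 in 5 bins in the glutamine-deficient library. Regions with at least 2 fragments numbered 128 and 10, and with at least 3, 35 and 7.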
